A study of Mus musculus with 48 samples.

Results

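Chemokine ligands and receptors were followed in 3 fat depots of male mice. The genes were chosen by name: every protein-coding gene of the table whose symbol begins with Ccl, Cxcl, Cx3cl or Xcl (ligands) or with Ccr, Cxcr, Cx3cr, Xcr or Ackr (receptors) and ends in a number, except Cxcl14. This gave 65 of 47729 genes, made up of 43 ligands, 18 signalling receptors and 4 atypical receptors, under 59 symbols. The mice lacked Cth (Cth-/-) or carried it (Cth+/+), and ate a cystine-free diet (CysF) or a control diet (CTRL) for 6 days. Cth encodes cystathionine gamma-lyase, which cleaves cystathionine to yield cysteine, and cystine is the oxidised dimer of cysteine. The depots were visceral white fat (EFAT), subcutaneous white fat (SFAT) and brown fat (BAT). The 12 groups were Cth-/- CysF, Cth-/- CTRL, Cth+/+ CysF and Cth+/+ CTRL in each depot, with 4 libraries in each group and 48 in all. The labels name no age, strain or design of the Cth allele. Nor do they state that libraries came from separate animals, so a p-value measures only the spread among the libraries, which may be technical.

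Chemokines are small secreted proteins that guide leukocytes along gradients. Each binds G protein-coupled receptors on the cells it attracts, and most receptors accept several ligands. Atypical chemokine receptors bind chemokines without classical G protein signalling and remove, store or transport them. In fat, the Ccl2-Ccr2 pair is best known for drawing monocytes into the tissue, where they become macrophages.

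Counts per library, in units of M (mega), were 18.7 to 36.1 in EFAT, 16.2 to 39.0 in SFAT and 22.1 to 46.0 in BAT. Cth had 0 to 6 reads in each of the 24 Cth-/- libraries and 8 to 389 in each of the 24 Cth+/+ libraries. Adipoq, the adipocyte hormone adiponectin, was at 991 to 2260 CPM (counts per M counts) in EFAT, 1130 to 1890 in SFAT and 430 to 881 in BAT, and Ucp1, the uncoupling protein of brown fat, was at 0 to 141, 0.814 to 1090 and 2280 to 10300 CPM. Some libraries stood apart. In BAT, replicates 10 and 12 had over 40% of their counts on mitochondrial genes, and SFAT replicate 20 had 31.3%. SFAT replicate 14 held the most B cell reads of its depot, and EFAT replicates 17 and 20 had raised mitochondrial shares of 14.7 and 14.4%. Reads of the pseudogene Gm43512 gave a further split: a library under 0.1 CPM was placed in set A, and the other 7 of each depot formed set B. The split was found in the data and is no labelled batch. The sets were uneven between the Cth-/- diet groups: in EFAT set B held 3 of 4 Cth-/- CysF and 1 of 4 Cth-/- CTRL libraries, and in SFAT and in BAT 1 of 4 and 2 of 4.

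Of the 65 genes, 44 had enough reads to be tested in at least 1 depot (40 in EFAT, 43 in SFAT, 27 in BAT), 26 of them in every depot. The other 21 had 0 to 207 reads over all 48 libraries. Ccr9, the receptor of Ccl25, had 207, Ccr4, the receptor of Ccl22, had 135, and the neutrophil receptor Cxcr1 had 8. Of the symbols, 5 stand on several lines of the table (Ccl19, Ccl21a, Ccl21b, Ccl21c and Ccl27a, 11 lines in all). These are near-identical gene copies whose reads the counting could split, so their values are uncertain. Unless named otherwise, Ccl21a is the copy on chromosome 4 (ENSMUSG00000094686), Ccl19 is ENSMUSG00000071005 and Ccl27a is ENSMUSG00000073888.

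The first question was where these genes are expressed in untreated fat. Levels of different genes are compared as CPM per kb of exon length, as mean ± SD of the 4 Cth+/+ CTRL libraries. In EFAT the highest were Ccl6, a mouse ligand of Ccr1 (33.2 ± 4.98), Ccl21a, a Ccr7 ligand of lymphatic vessels and lymph nodes (28.2 ± 18.0), the eotaxin Ccl11 (28.1 ± 9.99) and Cxcl12, the ligand of Cxcr4 (17.1 ± 0.87). The SDs of the first 3 span each other. In SFAT Ccl6 (59.6 ± 15.1) was followed by Ccl11 (33.8 ± 9.13), the ligand Ccl8 (31.0 ± 8.71) and Cxcl12 (23.6 ± 1.76). In BAT the highest was Ackr3, the atypical receptor that takes up Cxcl12 (25.8 ± 8.77), before Cxcl12 (12.5 ± 1.03), Ccl11 (10.9 ± 3.03) and Cxcl9, a ligand of Cxcr3 (6.27 ± 1.73).

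**Figure D1:**
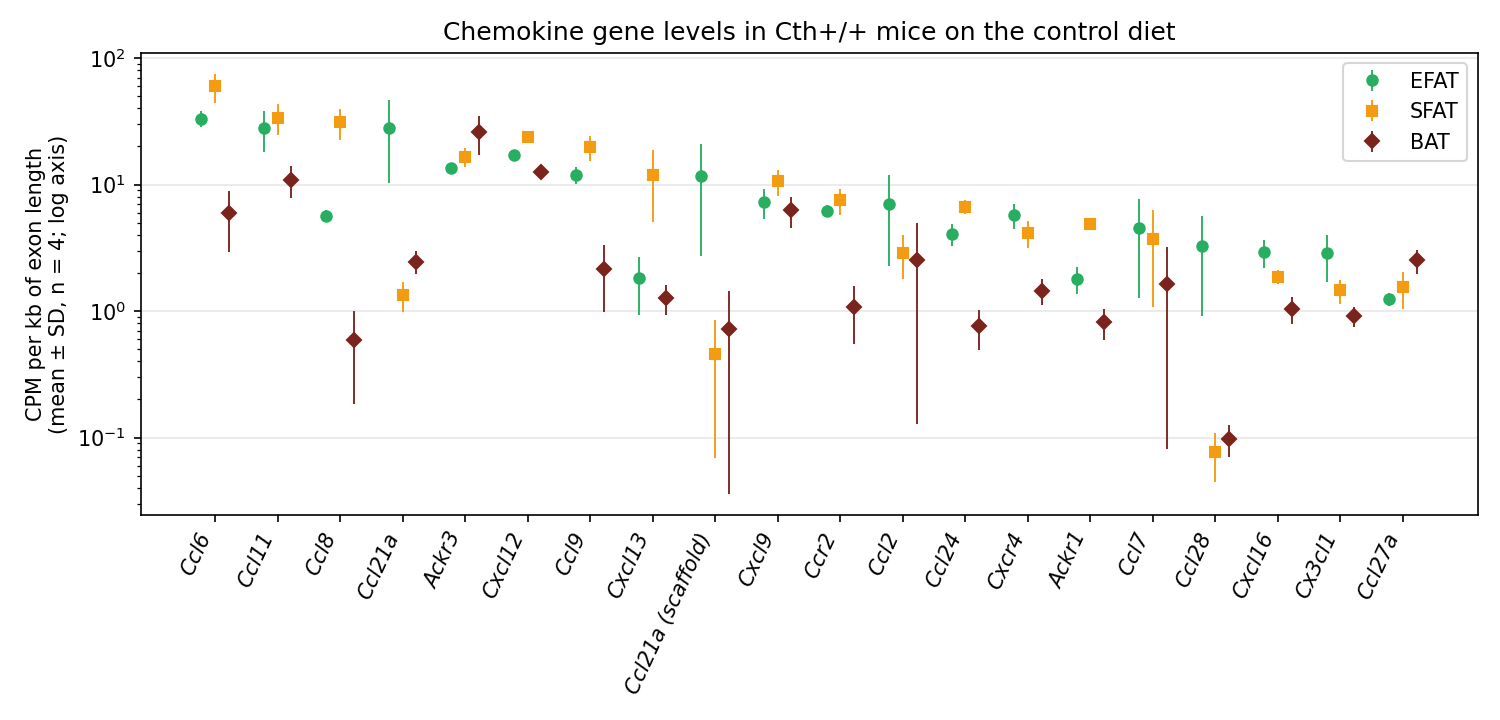
Levels of the 20 chemokine genes with the highest mean in any depot, in Cth+/+ mice on the control diet, as CPM per kb of exon length on a log axis (mean ± SD, 4 libraries; lower bars that would reach 0 are stopped above it). Ccl6 stood at 33.2 in EFAT, 59.6 in SFAT and 5.92 in BAT, whereas Ackr3 stood at 13.4 in EFAT, 16.6 in SFAT and 25.8 in BAT.

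White fat held more RNA of most of these genes than brown fat. In a fit of all 48 libraries, in which 45 of the genes were tested, 26 were higher and 3 lower in EFAT than in BAT, against 33.1% of all genes higher and 26.9% lower. In SFAT 23 were higher and 2 lower than in BAT, against 27.1 and 25.9% of all genes. The log2 fold changes (± SE) of Ccl8 were 3.23 ± 0.84 in EFAT over BAT and 5.70 ± 0.82 in SFAT over BAT, and those of Ccr1, a receptor of monocytes and neutrophils, were 3.32 ± 0.41 and 3.75 ± 0.41. The eotaxin Ccl24 (2.41 ± 0.26 and 3.14 ± 0.26) and Ccr2 (2.51 ± 0.38 and 2.79 ± 0.38) were higher in both white depots as well. The exceptions in both were Ccl27a (-1.04 ± 0.21 and -0.73 ± 0.21) and its receptor Ccr10 (-2.55 ± 0.52 and -1.49 ± 0.49), which were lower than in BAT. Ackr3 was lower in EFAT than in BAT (-0.98 ± 0.32), while its value for SFAT over BAT (-0.65 ± 0.32) did not pass (adjusted p = 0.0859). Macrophage marker genes moved with these differences: 16 of 16 were higher in EFAT and 14 of 16 in SFAT than in BAT, and their part in the result was not tested.

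Between the white depots 5 of the 45 genes were higher and 5 lower in EFAT than in SFAT, against 9.57 and 5.66% of all genes. Higher in EFAT were Ccl28, a mucosal ligand of Ccr10 (5.35 ± 0.98), both Ccl21a copies (4.39 ± 0.76 on chromosome 4, 4.72 ± 1.09 on a scaffold), Ackr4, which scavenges the ligands of Ccr7 (2.09 ± 0.38), and the fractalkine receptor Cx3cr1 (1.44 ± 0.36). Lower in EFAT were Cxcl13, the B cell attractant that binds Cxcr5 (-2.72 ± 0.51), Ccl8 (-2.47 ± 0.61), Ackr1 (-1.46 ± 0.26), Ackr2 (-1.21 ± 0.24) and Ccl24 (-0.73 ± 0.23).

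In Cth-/- mice the cystine-free diet went with lower RNA of many chemokine genes in SFAT and BAT and of fewer in EFAT. Cxcl13 stood out in the other direction. Genes were tested with the edgeR quasi-likelihood test over all genes of a depot and counted at an adjusted p under 0.05. In SFAT 21 of the 43 tested were lower and 1 higher in Cth-/- CysF than in Cth-/- CTRL mice, against 13.6% of all genes lower and 11.8% higher. In BAT 12 of 27 were lower and 1 higher, against 10.2 and 7.81%. In EFAT 9 of 40 were lower and 2 higher, against 14.3 and 14.5%. The median log2 fold change of those tested was -0.36 in EFAT, -0.89 in SFAT and -1.11 in BAT, beside 0.07, 0.03 and -0.01 for all genes. The ligands Ccl7 and Ccl8 and the receptors Ccr1 and Ccr2 were lower in all 3 depots. In exactly 2 depots 8 were lower (Ccl2, Ccl22, Ccl24, Cxcl9, Cxcl16, Ccr3, Cx3cr1 and Ackr3), and none was lower in 1 depot and higher in another. Receptors made up 4 of 11 tested lower in EFAT, 9 of 13 in SFAT and 4 of 6 in BAT, and ligands 4 of 25, 10 of 26 and 8 of 18. These are bulk tissues, in which fewer cells of a type and less RNA per cell cannot be told apart.

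**Figure D2:**
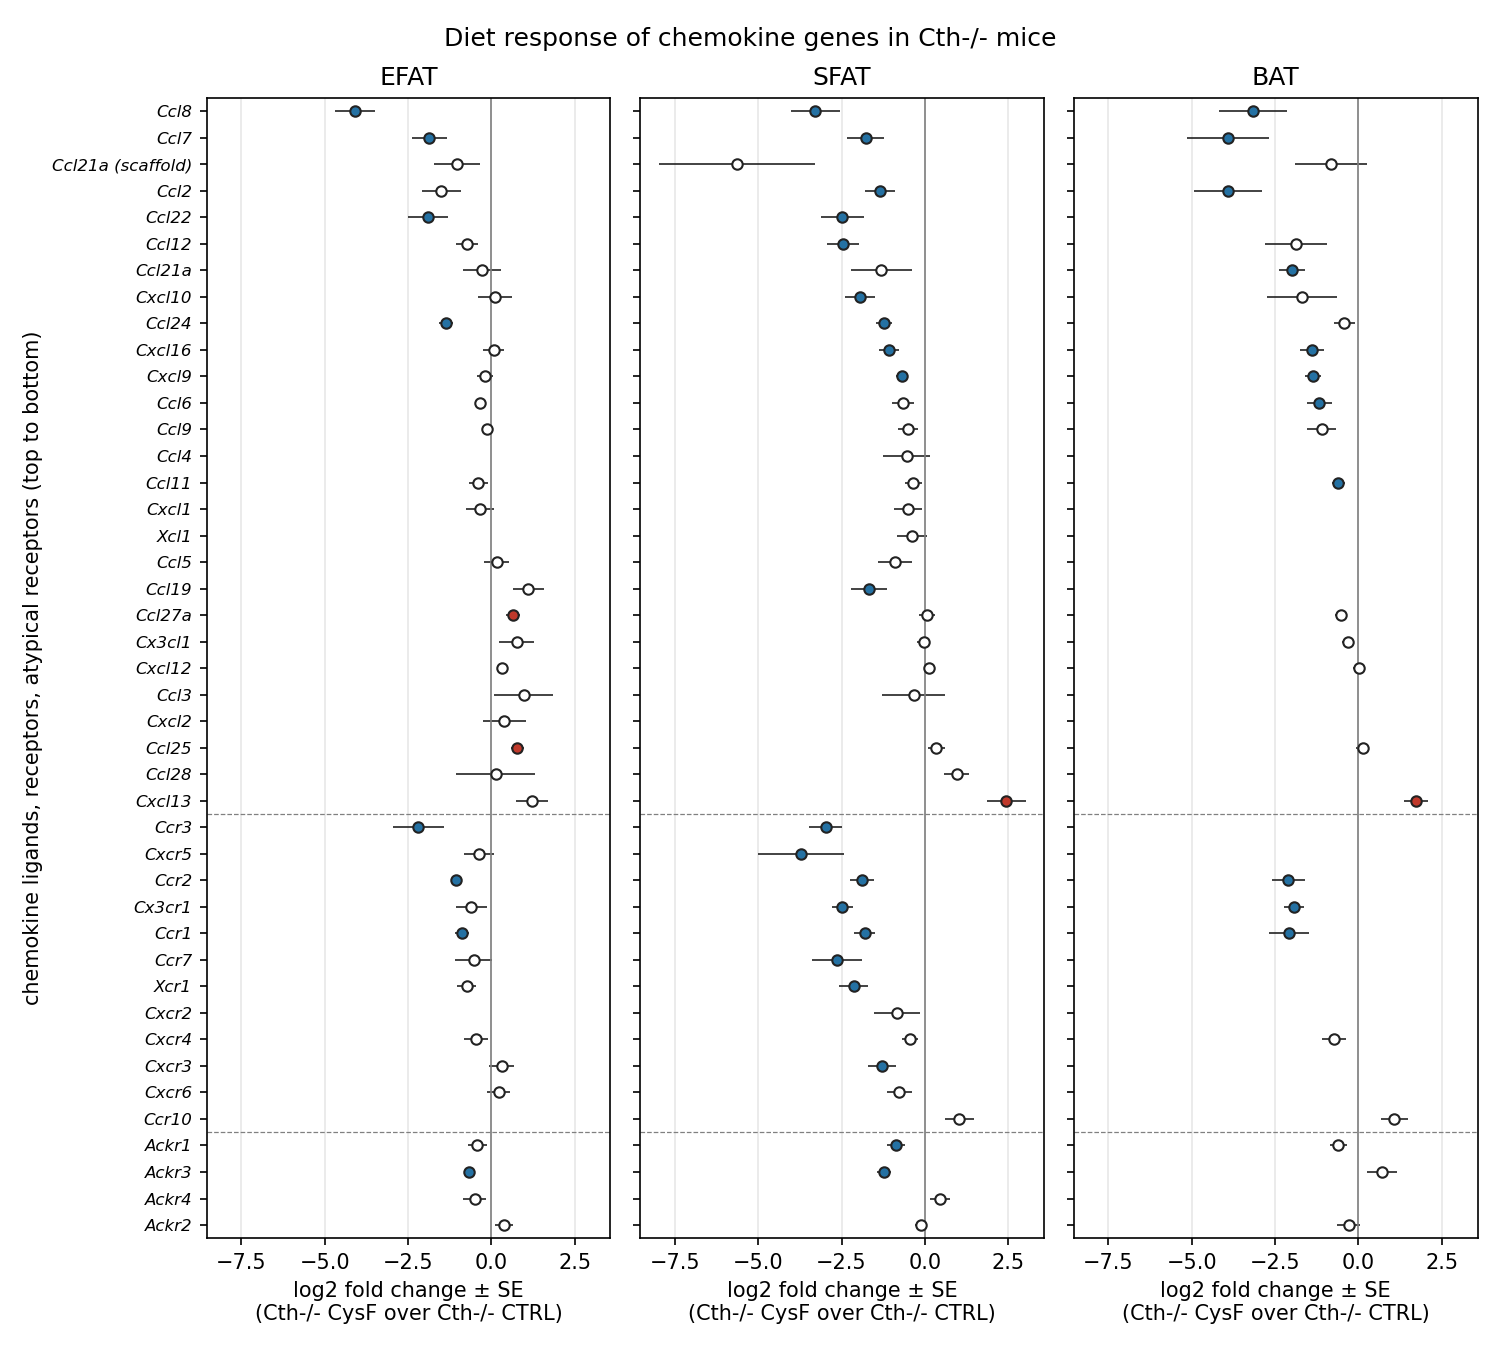
Log2 fold change ± SE of the tested chemokine genes named in the panels for Cth-/- CysF over Cth-/- CTRL, with ligands, receptors and atypical receptors from top to bottom and 1 panel for each depot. Filled points passed the test (blue lower, red higher), and Ccl8 lies at -4.09 in EFAT, -3.28 in SFAT and -3.18 in BAT, Cxcl13 at 2.44 in SFAT and 1.74 in BAT.

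The counts depended on the library set and on the libraries in doubt. Within set A and set B 0 and 1 genes passed in EFAT, 19 and 8 in SFAT, and 6 and 1 in BAT. Each EFAT fit, and the set B fits of SFAT and BAT, held a single library in 1 of the diet groups, which was assumed to vary like the others. With the set as a term in the fit the counts were 7 in EFAT (all lower), 21 in SFAT and 12 in BAT. Without the libraries that stood apart they were 4 in EFAT, 17 in SFAT and 11 in BAT. The 4 in EFAT were all lower, with Ccl8, Ccl24 and Ccr2 among them. The shares of all genes given above belong to the fit of all libraries of a depot. Shares for these other fits are not given here. The counts therefore cannot show whether chemokine genes lost calls more than other genes did.

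Ccl8, Ccl7, Ccl2 and Ccl12 are neighbouring genes of the group named monocyte chemoattractant proteins. Most of the group, though not each member alike, act on Ccr2. Ccl8 (ENSMUSG00000009185, GRCm38 chromosome 11, 82115185 to 82116799, plus strand) had 0.44, 0.0451, 0.312 and 0.171 CPM in EFAT of Cth-/- CysF mice, against 2.22, 7.45, 2.14 and 6.38 CPM in Cth-/- CTRL mice. In SFAT Ccl8 had 1.36, 3.05, 7.32 and 1.73 CPM in Cth-/- CysF mice, against 19.9, 76.2, 7.53 and 34.3 CPM in Cth-/- CTRL mice. In BAT Ccl8 had 0.02, 0, 0.102 and 0 CPM in Cth-/- CysF mice, against 0.199, 0.44, 0.149 and 0.393 CPM in Cth-/- CTRL mice. The groups did not overlap in any depot, although the highest Cth-/- CysF library of SFAT lay just under the lowest Cth-/- CTRL library. The log2 fold changes were -4.09 ± 0.59 in EFAT (adjusted p = 0.000334), -3.28 ± 0.73 in SFAT (adjusted p = 0.00451) and -3.18 ± 1.02 in BAT (adjusted p = 0.0418). BAT held only 4 reads in all Cth-/- CysF libraries against 41 in Cth-/- CTRL libraries, a CPM ratio of 0.0984 (exact 95% interval of the counts 0.0256 to 0.272, counting error only), and its call was lost in 7 of 8 fits without 1 library.

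Ccl7 had 1.12, 1.08, 1.16 and 0.428 CPM in EFAT of Cth-/- CysF mice, against 5.97, 2.9, 4.2 and 1.74 CPM in Cth-/- CTRL mice. These groups did not overlap (-1.86 ± 0.53, adjusted p = 0.0186). In SFAT it had 1.36, 2.34, 2.07 and 1.02 CPM in Cth-/- CysF mice, against 6.65, 11.4, 4.38 and 1.59 CPM in Cth-/- CTRL mice, with overlap (-1.77 ± 0.55, adjusted p = 0.029). In BAT it had 0.0399, 0.0617, 0.0683 and 0 CPM in Cth-/- CysF mice, against 0.149, 0.22, 2.16 and 0.439 CPM in Cth-/- CTRL mice (-3.91 ± 1.22, adjusted p = 0.0368). The value of 2.16 belongs to replicate 14. Without it the change in BAT was -2.56 and did not pass. The BAT call was lost without replicate 16, 17, 18 or 20 as well, the SFAT call without replicate 12, 13, 16 or 20, and the EFAT call without replicate 12 or 20. In EFAT Ccl7 also failed with the library set as a term (-1.79, adjusted p = 0.0723) and without the libraries in doubt (-1.63, adjusted p = 0.144).

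Ccl2, the main ligand of Ccr2, had 0.12, 0.0308, 0.102 and 0.148 CPM in BAT of Cth-/- CysF mice, against 0.546, 0.302, 4.42 and 0.901 CPM in Cth-/- CTRL mice (-3.92 ± 1.02, adjusted p = 0.0157). The groups did not overlap, and replicate 14 was again the high library. Without it the change was -2.55 and the call was lost, as it was without replicate 17. In SFAT Ccl2 had 1.15, 1.85, 2.69 and 1.15 CPM in Cth-/- CysF mice, against 5.19, 8.06, 3.43 and 1.39 CPM in Cth-/- CTRL mice, with overlap (-1.35 ± 0.45, adjusted p = 0.0392). This call was lost in 5 of 8 fits without 1 library. In EFAT Ccl2 averaged 2.28 ± 1.05 CPM in Cth-/- CysF mice and 6.98 ± 3.85 CPM in Cth-/- CTRL mice (SD, n = 4 each) and did not pass (-1.50 ± 0.59, adjusted p = 0.0673), though it did with DESeq2 (adjusted p = 0.0238), with only the groups compared (0.0486) and without replicate 15 (0.0316). Ccl12, a mouse ligand of Ccr2, passed in SFAT (-2.45 ± 0.48, adjusted p = 0.00197), where the groups did not overlap.

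Among the 5 tested genes of this stretch of chromosome 11 (82035571 to 82305690, with Ccl11 and with Ccl1, which was too low to test), 2 were lower in EFAT, 4 in SFAT and 4 in BAT. The next ligand group on the chromosome, at 83525778 to 83664683, had 0 of 4 lower in EFAT, 0 of 5 in SFAT and 1 of 2 in BAT. It holds Ccl3, Ccl4, Ccl5, Ccl6 and Ccl9, the last 2 of them mouse ligands of Ccr1. Ccl6 was the gene that passed in BAT (-1.17 ± 0.38, adjusted p = 0.0433; in 3 of 8 fits without 1 library), and it was named after its value was seen.

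Ccr2, the receptor of Ccl2 on monocytes (ENSMUSG00000049103, chromosome 9, 124101950 to 124113557, plus strand), had 25.5, 30.3, 25.5 and 17.7 CPM in EFAT of Cth-/- CysF mice, against 55, 50.8, 57.2 and 60.9 CPM in Cth-/- CTRL mice. In SFAT Ccr2 had 18.7, 29.3, 22.9 and 18.4 CPM in Cth-/- CysF mice, against 75.7, 143, 35.5 and 83.6 CPM in Cth-/- CTRL mice. In BAT Ccr2 had 0.918, 1.08, 1.4 and 0.544 CPM in Cth-/- CysF mice, against 2.38, 2.28, 7.8 and 4.55 CPM in Cth-/- CTRL mice. No depot showed overlap between the groups. The log2 fold changes were -1.07 ± 0.15 in EFAT (adjusted p = 0.000327), -1.89 ± 0.37 in SFAT (adjusted p = 0.00207) and -2.10 ± 0.49 in BAT (adjusted p = 0.00915), and each passed in all 8 fits without 1 library.

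Ccr1, a receptor of monocytes and neutrophils that was lower in every depot too, changed by -0.89 ± 0.21 in EFAT, -1.80 ± 0.32 in SFAT and -2.08 ± 0.60 in BAT (adjusted p = 0.0063, 0.00107 and 0.0255), without overlap in any of them. The EFAT call of Ccr1 passed with the library set as a term (adjusted p = 0.032) but was lost without the libraries in doubt (-0.65, adjusted p = 0.1). The BAT call of Ccr1, which rests on 15 reads in Cth-/- CysF and 62 in Cth-/- CTRL libraries, was lost without replicate 14, 16, 18 or 20.

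Promoter windows from RefSeq (GRCm38.p6) were found for 44 of the 59 symbols, and 4 are shown because their genes passed in several depots: Ccl8, Ccr1 and Ccr2, lower in all 3, and Cxcl13, higher in 2. They are chr11:82114935-82115234 (plus strand), chr9:123968643-123968942 (minus), chr9:124101933-124102232 (plus) and chr5:95956689-95956988 (plus). Capitals mark letters that match the TATA box (TATAAA) or the NF-kB motif (GGG, any 5 bases, CC), on either strand.
Ccl8: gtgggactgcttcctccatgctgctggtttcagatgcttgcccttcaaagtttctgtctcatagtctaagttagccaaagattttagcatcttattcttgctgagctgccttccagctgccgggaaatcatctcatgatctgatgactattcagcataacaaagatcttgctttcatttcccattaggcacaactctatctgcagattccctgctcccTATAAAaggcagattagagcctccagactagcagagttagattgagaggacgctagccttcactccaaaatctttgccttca
Ccr1: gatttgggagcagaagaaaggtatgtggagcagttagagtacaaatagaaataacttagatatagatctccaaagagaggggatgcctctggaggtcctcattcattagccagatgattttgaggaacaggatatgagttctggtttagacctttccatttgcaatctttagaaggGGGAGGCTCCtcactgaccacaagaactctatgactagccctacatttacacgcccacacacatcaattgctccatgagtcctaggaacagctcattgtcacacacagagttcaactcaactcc
Ccr2: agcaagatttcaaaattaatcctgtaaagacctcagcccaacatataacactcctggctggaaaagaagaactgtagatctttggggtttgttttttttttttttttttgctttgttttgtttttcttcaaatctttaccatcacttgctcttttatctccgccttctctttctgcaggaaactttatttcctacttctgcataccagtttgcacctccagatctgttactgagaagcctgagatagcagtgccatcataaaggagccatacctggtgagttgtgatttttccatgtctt
Cxcl13: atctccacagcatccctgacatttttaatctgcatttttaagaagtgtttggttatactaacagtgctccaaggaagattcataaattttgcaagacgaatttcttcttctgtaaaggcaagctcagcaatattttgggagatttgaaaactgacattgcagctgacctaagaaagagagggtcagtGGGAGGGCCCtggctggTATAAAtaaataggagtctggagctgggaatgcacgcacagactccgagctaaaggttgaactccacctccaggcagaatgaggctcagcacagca
The TATAAA run began at position -32 from the annotated start in Ccl8 and at -46 in Cxcl13, and an NF-kB match at -74 in Ccr1 and at -63 in Cxcl13. The Ccr2 window held neither run of letters. Over all 51 promoter windows of chemokine genes 27.5% held TATAAA, beside 13.6% of all 32851 windows, and 56.9% held the NF-kB letters, beside 50.8%. AP-1 letters (TGANTCA) stood in 17.6%, beside 7.81% of all windows. Gamma-activated site letters (TTCNNNGAA) stood in 3.92%, beside 8.3%, and interferon-stimulated response element letters (GAAA, any 2 bases, GAAA) in 3.92%, beside 3.44%. The glucocorticoid response element (GNACA, any 3 bases, TGTNC) stood in 0 of 51 windows, beside 0.475% of all. The NF-kB letters are loose and common, and no motif overlapped another in the 4 windows shown.

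Eotaxins attract eosinophils through Ccr3. Ccl24 had 3.59, 3.43, 2.99 and 2.52 CPM in EFAT of Cth-/- CysF mice, against 10, 6.66, 9.34 and 8.57 CPM in Cth-/- CTRL mice, without overlap (-1.36 ± 0.20, adjusted p = 0.000402). It was lower in SFAT too (-1.23 ± 0.25, adjusted p = 0.00256), without overlap, and did not pass in BAT (-0.42 ± 0.32, adjusted p = 0.396). Ccl11 passed in BAT only (-0.60 ± 0.19, adjusted p = 0.041), in 1 of 8 fits without 1 library, while its values were -0.39 ± 0.28 in EFAT and -0.34 ± 0.25 in SFAT. Ccr3 had 0.17, 0.415, 0.438 and 0.512 CPM in SFAT of Cth-/- CysF mice, against 2.35, 5.31, 0.85 and 3.77 CPM in Cth-/- CTRL mice, without overlap (-2.97 ± 0.49, adjusted p = 0.000658). In EFAT it had 0.102, 0.0451, 0.624 and 0.0428 CPM in Cth-/- CysF mice, against 0.953, 1.09, 1.56 and 0.411 CPM in Cth-/- CTRL mice. These groups overlapped through replicate 18 (-2.19 ± 0.77, adjusted p = 0.0441), and the call was lost in 6 of 8 fits without 1 library.

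Ccl22, a dendritic cell and macrophage product that binds Ccr4, had 0.237, 0.451, 1.03 and 1.11 CPM in EFAT of Cth-/- CysF mice, against 1.56, 1.98, 5.46 and 2.47 CPM in Cth-/- CTRL mice, without overlap (-1.89 ± 0.60, adjusted p = 0.0303). In SFAT it had 0.085, 0.302, 0.626 and 1.22 CPM in Cth-/- CysF mice, against 2.07, 6.02, 3.18 and 1.02 CPM in Cth-/- CTRL mice, with overlap (-2.48 ± 0.65, adjusted p = 0.0114). The EFAT call was lost without replicate 14, 16 or 17. Xcr1, a receptor of cross-presenting dendritic cells, was lower in SFAT (-2.13 ± 0.43, adjusted p = 0.00241) and did not pass in EFAT (-0.74 ± 0.29, adjusted p = 0.069).

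Cx3cl1, or fractalkine, is a membrane-bound ligand, and Cx3cr1 on monocytes and macrophages is its receptor. Cx3cr1 had 0.255, 0.264, 0.47 and 0.384 CPM in SFAT of Cth-/- CysF mice, against 2.18, 2.34, 1.54 and 1.84 CPM in Cth-/- CTRL mice (-2.47 ± 0.31, adjusted p = 7.05e-05). In BAT it had 0.459, 0.401, 0.205 and 0.247 CPM in Cth-/- CysF mice, against 1.14, 1.37, 1.52 and 1.15 CPM in Cth-/- CTRL mice (-1.93 ± 0.30, adjusted p = 0.000566). Neither depot showed overlap, and both calls passed in all 8 fits without 1 library. In EFAT, where its level was higher, Cx3cr1 averaged 4.18 ± 1.27 CPM in Cth-/- CysF mice and 6.75 ± 2.73 CPM in Cth-/- CTRL mice (SD, n = 4 each) and did not pass (-0.60 ± 0.47, adjusted p = 0.358). The difference between the EFAT and SFAT responses of Cx3cr1 passed (1.84 ± 0.54, adjusted p = 0.0422), and this call was lost in 12 of 21 alternative fits. The ligand itself did not pass in any depot. Cx3cl1 averaged 21.2 ± 5.64 CPM in Cth-/- CysF mice and 13.3 ± 8.44 CPM in Cth-/- CTRL mice in EFAT (0.77 ± 0.52), 5.39 ± 0.83 and 5.68 ± 0.75 CPM in SFAT (-0.04 ± 0.18), and 2.10 ± 0.37 and 2.59 ± 0.39 CPM in BAT (-0.31 ± 0.19).

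The chemokines of lymphoid tissue did not move as one. Cxcl13 (ENSMUSG00000023078, chromosome 5, 95956951 to 95961068, plus strand) was singled out after its values were seen, as it was the 1 gene higher in SFAT and in BAT. It had 67.8, 147, 150 and 134 CPM in SFAT of Cth-/- CysF mice, against 15.1, 33.5, 31 and 14.2 CPM in Cth-/- CTRL mice (2.44 ± 0.58, adjusted p = 0.00664). In BAT it had 3.41, 3.52, 1.71 and 4.15 CPM in Cth-/- CysF mice, against 0.993, 0.742, 1.08 and 0.993 CPM in Cth-/- CTRL mice (1.74 ± 0.36, adjusted p = 0.00404). In EFAT it had 4.17, 7.31, 3.97 and 4.45 CPM in Cth-/- CysF mice, against 0.762, 2.25, 2.67 and 3.6 CPM in Cth-/- CTRL mice, which did not pass (1.21 ± 0.49, adjusted p = 0.0737). Every Cth-/- CysF library lay above every Cth-/- CTRL library in each depot. Within set A the change was 2.35 in SFAT, which passed, and 1.72 in BAT (adjusted p = 0.0652). Within set B it was 2.64 in SFAT and 2.01 in BAT. Set B holds a single Cth-/- CysF library in each of these depots, so the spread of that group was not measured there.

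Cxcr5, the receptor of Cxcl13 on B cells, had 0.0425, 0.0377, 0.344 and 0.128 CPM in SFAT of Cth-/- CysF mice, against 0.179, 0.356, 7.08 and 0.454 CPM in Cth-/- CTRL mice (-3.72 ± 1.28, adjusted p = 0.0441). The value of 7.08 belongs to replicate 14, the library with the most B cell reads. Without it the change was -1.13 and the call was lost (adjusted p = 0.463), as it was without replicate 16, 17 or 20. Ccr7, which brings dendritic cells and T cells to lymph nodes, had 0.0425, 0.188, 0.376 and 0.32 CPM in SFAT of Cth-/- CysF mice, against 0.589, 2.37, 2.42 and 0.596 CPM in Cth-/- CTRL mice, without overlap (-2.63 ± 0.74, adjusted p = 0.0169). It missed the threshold without replicate 13 (adjusted p = 0.0506), and in EFAT it did not pass (-0.53 ± 0.55, adjusted p = 0.487). Of its ligands, Ccl19 was lower in SFAT (-1.68 ± 0.55, adjusted p = 0.0347; lost without replicate 14, 16 or 20) and Ccl21a in BAT. Ccl21a had 0.459, 0.493, 0.239 and 0.742 CPM in BAT of Cth-/- CysF mice, against 1.64, 1.18, 1.75 and 2.93 CPM in Cth-/- CTRL mice, without overlap (-1.996 ± 0.39, adjusted p = 0.00299). The Ccl21a copy on a scaffold did not pass in BAT, with overlap (-0.83 ± 1.08, adjusted p = 0.635). In EFAT Ccl21a had 21.4 to 36.7 CPM in Cth-/- CysF mice and 13.7 to 65.6 CPM in Cth-/- CTRL mice (-0.29 ± 0.57, adjusted p = 0.72).

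Cxcl9 and Cxcl10 are interferon-induced ligands of Cxcr3 on activated T cells, and Cxcl16 is the ligand of Cxcr6. Cxcl10 had 0.297, 0.302, 0.845 and 0.64 CPM in SFAT of Cth-/- CysF mice, against 2.97, 3.02, 1.2 and 1.14 CPM in Cth-/- CTRL mice, without overlap (-1.95 ± 0.45, adjusted p = 0.00554). It did not pass in EFAT (0.936 ± 0.440 CPM in Cth-/- CysF and 0.936 ± 0.314 CPM in Cth-/- CTRL mice, SD, n = 4 each) or in BAT (0.134 ± 0.056 and 0.472 ± 0.304 CPM, -1.70 ± 1.05, adjusted p = 0.282). Cxcl9 was lower in SFAT (-0.68 ± 0.19, adjusted p = 0.0148) and in BAT (-1.37 ± 0.24, adjusted p = 0.0015). Cxcl16 was lower in SFAT (-1.07 ± 0.30, adjusted p = 0.0159) and in BAT (-1.39 ± 0.35, adjusted p = 0.0136). The SFAT call of Cxcl16 was lost without replicate 13. Its exons overlap those of Zmynd15 on the other strand, which was lower in SFAT too (-1.49 ± 0.35). Both differed between the EFAT and BAT responses, by 1.11 ± 0.32 for Cxcl9 and 1.40 ± 0.48 for Cxcl16. The first call was lost in 2 of 21 alternative fits and the second in 13 of 21, with the library set as a term among them. Cxcr3 passed in SFAT (-1.28 ± 0.41, adjusted p = 0.0318), in 2 of 8 fits without 1 library.

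Cxcl12 retains and recruits cells that carry Cxcr4, and Ackr3 removes it. Cxcl12 averaged 199.9 ± 24.8 CPM in EFAT of Cth-/- CysF mice and 171 ± 14.9 CPM in Cth-/- CTRL mice (SD, n = 4 each; 0.33 ± 0.14, adjusted p = 0.0835). It averaged 259 ± 33.3 CPM in Cth-/- CysF mice and 244 ± 59.96 CPM in Cth-/- CTRL mice in SFAT (0.12 ± 0.16), and 91.8 ± 10.7 and 90.3 ± 29.6 CPM in BAT (0.01 ± 0.19), so no depot passed. Cxcr4 did not pass in any depot either. It averaged 7.53 ± 2.50 CPM in Cth-/- CysF mice and 11.3 ± 4.56 CPM in Cth-/- CTRL mice in EFAT (-0.46 ± 0.36), 5.30 ± 1.73 and 7.35 ± 1.72 CPM in SFAT (-0.44 ± 0.24), and 0.928 ± 0.0905 and 1.58 ± 0.814 CPM in BAT (-0.74 ± 0.36). Ackr3 (chromosome 1, 90203980 to 90216751), described here after its values were seen, had 34.8, 29.1, 34.6 and 31.7 CPM in EFAT of Cth-/- CysF mice, against 57.4, 69.3, 45.1 and 51.4 CPM in Cth-/- CTRL mice (-0.67 ± 0.16, adjusted p = 0.0071). In SFAT it had 37.8, 41.6, 39.8 and 45.5 CPM in Cth-/- CysF mice, against 82.7, 132, 64.7 and 112 CPM in Cth-/- CTRL mice (-1.21 ± 0.21, adjusted p = 0.000883). Neither white depot showed overlap. In BAT it had 33.3, 51.7, 104 and 117 CPM in Cth-/- CysF mice, against 22.3, 46.8, 29.9 and 87.6 CPM in Cth-/- CTRL mice, with wide overlap (0.71 ± 0.45, adjusted p = 0.294). Within set A the change of Ackr3 was -1.61 in SFAT, which passed. In BAT it was -0.0967 within set A (adjusted p = 0.908), below 0 unlike in the fit of all libraries. Within set B the change of Ackr3 was -0.59 in SFAT and 2.18 in BAT. Set B holds 1 Cth-/- CysF library in SFAT and in BAT, so the spread of that group was not measured there. The EFAT call was lost without the libraries in doubt (-0.62, adjusted p = 0.0803). The response of Ackr3 differed between EFAT and BAT (-1.41 ± 0.46, adjusted p = 0.0313; lost in 8 of 21 alternative fits) and between SFAT and BAT (-1.91 ± 0.46, adjusted p = 0.0189).

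**Figure D3:**
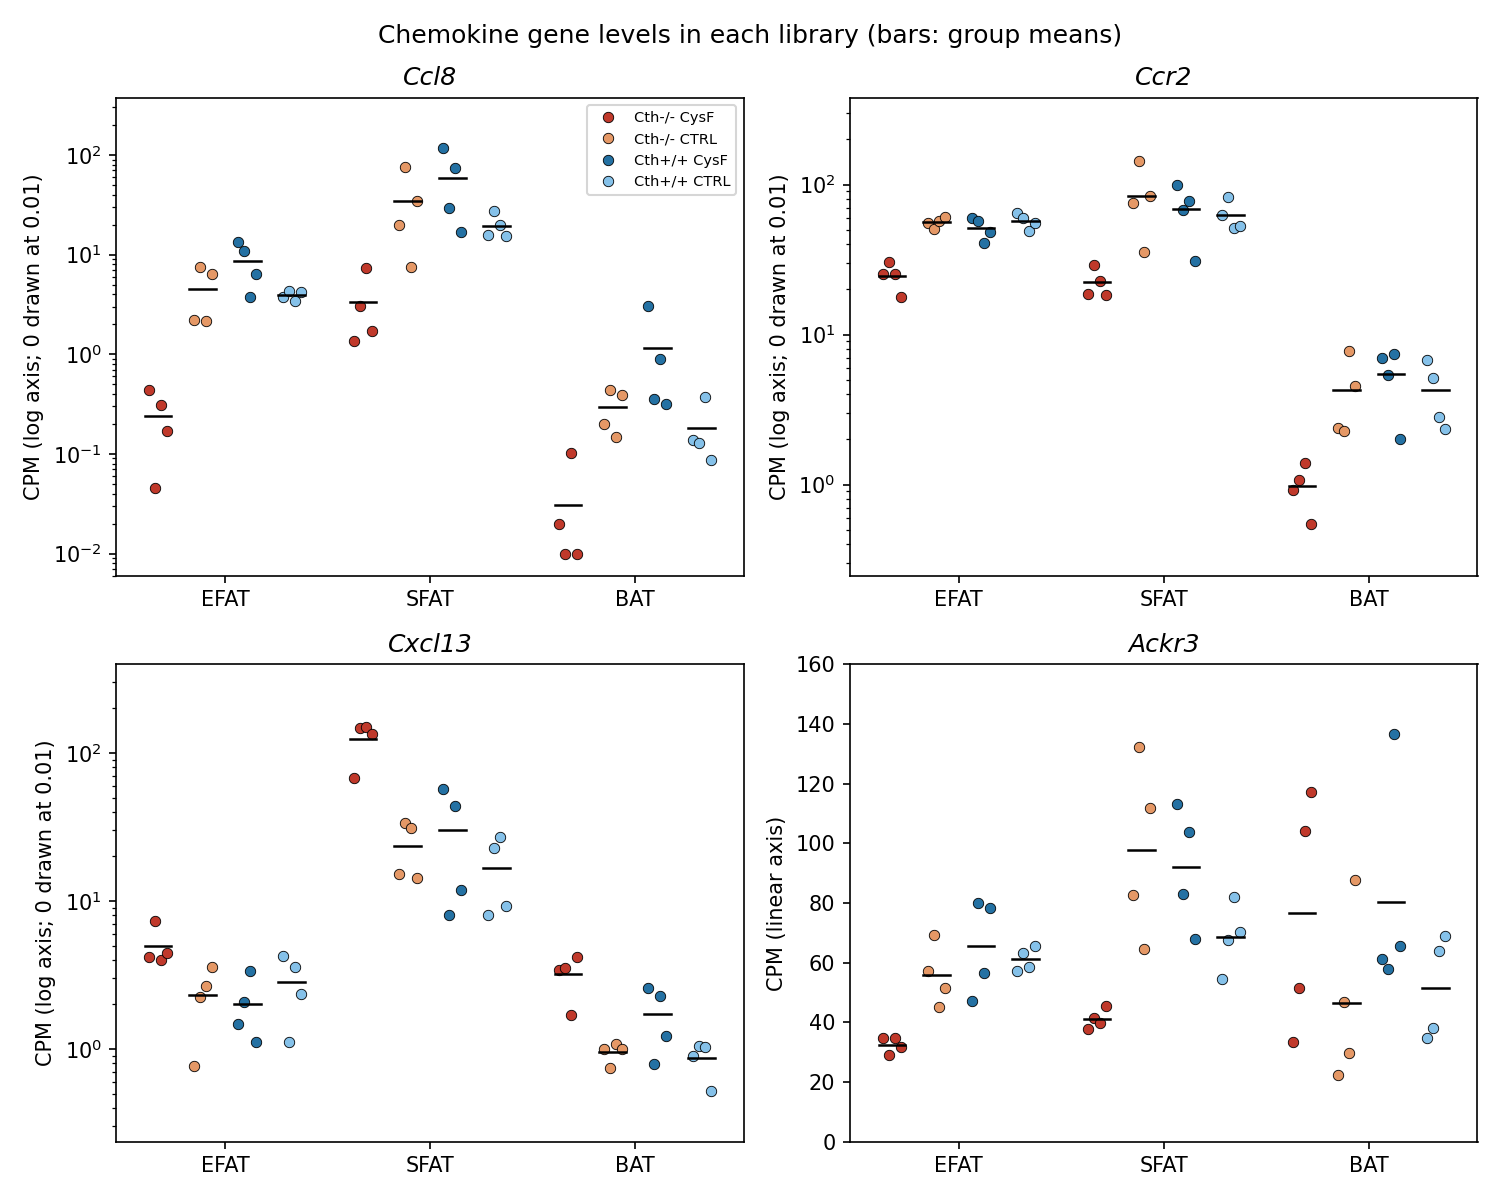
CPM of Ccl8, Ccr2, Cxcl13 and Ackr3 in each of the 48 libraries (points) with group means (bars), by depot and group. The axes are logarithmic, with 0 drawn at 0.01, except for Ackr3, whose axis is linear. Cxcl13 reached 67.8 to 150 CPM in SFAT of Cth-/- CysF mice, and Ackr3 was at 29.1 to 45.5 CPM in white fat of the same groups.

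Among the other atypical receptors, Ackr1, which carries chemokines across venules, had 6.63, 6.3, 7.86 and 6.34 CPM in SFAT of Cth-/- CysF mice, against 11.4, 15.7, 8.16 and 15.7 CPM in Cth-/- CTRL mice, without overlap (-0.87 ± 0.28, adjusted p = 0.0306). This call was lost in 5 of 8 fits without 1 library. Its exons overlap those of Cadm3 on the same strand, which was also lower in SFAT (-1.33 ± 0.31), so reads of the pair may be mixed. Ackr1 did not pass in EFAT (2.25 ± 0.24 CPM in Cth-/- CysF and 3.25 ± 0.75 CPM in Cth-/- CTRL mice, -0.42 ± 0.28) or in BAT (0.448 ± 0.045 and 0.669 ± 0.106 CPM, -0.60 ± 0.27). Ackr2 and Ackr4, which scavenge CC chemokines, did not pass in any depot in which they were tested. The genes higher in EFAT were Ccl25 and Ccl27a. Ccl25, the ligand of Ccr9, had 7.01, 11.1, 10.3 and 12.2 CPM in Cth-/- CysF mice, against 5.84, 6.93, 5.4 and 7.55 CPM in Cth-/- CTRL mice, with overlap (0.78 ± 0.20, adjusted p = 0.00982). Ccl27a had 4.71, 5.69, 4.37 and 5.6 CPM in Cth-/- CysF mice, against 2.76, 3.55, 2.79 and 4.99 CPM in Cth-/- CTRL mice, with overlap (0.64 ± 0.20, adjusted p = 0.0304). Neither passed with the library set as a term (adjusted p = 0.0513 and 0.0924), and the call of Ccl27a was lost in 5 of 8 fits without 1 library. Both genes share exon sequence with a gene on the other strand (Elavl1 and Il11ra1), and whether the counting used strand is not given in the sources used here.

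Marker genes of immune and stromal cells moved in the same comparison, and their part in the changes of the chemokine genes was not tested. The counts stand beside 14.3% of all genes lower and 14.5% higher in EFAT, 13.6 and 11.8% in SFAT, and 10.2 and 7.81% in BAT, and a list with a share near these gives no result of its own. Of 16 macrophage markers, all of them tested in every depot, 6 were lower and 1 higher in EFAT, 6 and 1 in SFAT, and 8 and 0 in BAT. Their summed level was 649 to 835 CPM in Cth-/- CysF mice against 1030 to 1120 CPM in Cth-/- CTRL mice in EFAT, 671 to 1110 against 1080 to 2740 CPM in SFAT, and 55.1 to 64.0 against 79.9 to 112 CPM in BAT. Of 7 monocyte markers 1 was lower in EFAT (sums of 95 to 118 CPM in Cth-/- CysF mice against 231 to 275 CPM in Cth-/- CTRL mice), 4 were lower and 1 higher in SFAT, and 3 were lower in BAT. Of 7 tested eosinophil and mast cell markers 1 was lower in EFAT, and 2 were lower and 1 higher in SFAT, and 2 of 4 tested were lower in BAT. Of 12 B cell markers 1 was lower in EFAT, 12 of 12 in SFAT and 2 of 3 tested in BAT, with sums in SFAT of 43.6 to 106 CPM in Cth-/- CysF mice against 163 to 710 CPM in Cth-/- CTRL mice. Of 8 dendritic cell markers 7 were lower in SFAT (32.8 to 43.5 against 51.4 to 68.3 CPM). Of these markers Cd209a (-1.19 ± 0.14) and Batf3 (-0.83 ± 0.23) were lower in EFAT, and Cd209a (-1.70 ± 0.47) in BAT. The other dendritic cell markers tested in EFAT and BAT did not pass. Fibroblast markers were lower for 6 of 12 in EFAT (1 higher), 10 of 12 in SFAT and 8 of 12 in BAT. In EFAT 3 of 11 tested T and NK cell markers and 2 of 7 tested epithelial markers were higher. The T cell markers Cd8b1 (-2.62 ± 0.85), Cd4 (-2.10 ± 0.65) and Trac (-1.74 ± 0.37) were lower in SFAT, and Trac (-2.07 ± 0.61) in BAT. The other T and NK cell markers tested in SFAT and BAT did not pass. In BAT 6 of 8 skeletal muscle markers were lower.

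Genes that act before and after the receptors were read from lists chosen with earlier results of these data known. Of all genes, 14.3% were lower and 14.5% higher in EFAT, 13.6 and 11.8% in SFAT, and 10.2 and 7.81% in BAT. Of the cytokines that regulate chemokine genes, 3 of 7 tested were lower and 1 higher in EFAT. Those lower were 7 of 8 in SFAT and 1 of 3 in BAT. In SFAT the largest changes were those of lymphotoxin beta (Ltb, -2.26 ± 0.69), Il10 (-1.85 ± 0.65) and Tslp (-1.64 ± 0.42). Tslp was lower in EFAT as well (-1.42 ± 0.27), whereas the alarmin Il33 was higher there (0.70 ± 0.25), and Csf1, the macrophage growth factor, was the 1 that passed in BAT (-0.88 ± 0.25). Of 16 transcription factors that switch chemokine genes on, 4 were lower in EFAT, 6 in SFAT and 1 in BAT, where the share lies below that of all genes, and none was higher. Irf8 (-0.65 ± 0.20 in EFAT, -1.33 ± 0.22 in SFAT) and Irf5 (-0.55 ± 0.18 and -1.35 ± 0.30), both of the myeloid lineage, were among them, and Nfkb2 was the 1 in BAT (-0.57 ± 0.16). Of the genes of receptor signalling, 14 of 36 were lower and 2 higher in EFAT, 18 and 2 of 36 in SFAT, and 7 and 0 of 35 in BAT. They included the myeloid kinase Fgr (-1.87 ± 0.46) and the phospholipase Plcb2 (-1.83 ± 0.34) in SFAT, and Rac2 (-1.91 ± 0.34) and Dock2 (-1.66 ± 0.34), which drive leukocyte movement, in BAT. In EFAT the regulators Rgs16 (1.45 ± 0.32) and Rgs2 (1.31 ± 0.35), which shorten G protein signals, were the 2 that were higher.

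Chemokine-like genes outside the naming rule moved in both directions. In EFAT 2 of 12 were lower and 3 higher, in SFAT 6 of 13 and 2, and in BAT 4 of 12 and 1, so that in EFAT the share lower was near that of all genes given above. Pf4, a platelet and macrophage chemokine, was lower in EFAT (-1.65 ± 0.18), SFAT (-1.39 ± 0.17) and BAT (-1.50 ± 0.25). The formyl peptide receptor Fpr2 (-3.45 ± 0.79) and Cd74 (-1.78 ± 0.19), the receptor of Mif, were lower in SFAT. Of the adhesion and processing genes, 2 of 18 were lower and 1 higher in EFAT, 10 and 1 of 19 in SFAT, and 7 and 1 of 19 in BAT. In EFAT both adhesion counts lie below the share of all genes. The integrin Itgam was lower in each depot (-1.05 ± 0.15 in EFAT, -1.66 ± 0.33 in SFAT, -1.92 ± 0.41 in BAT), as its gene ID with the lower p, which the counts use. A second ID under the symbol Itgam did not pass (0.03 ± 1.13 in EFAT, 1.59 ± 1.15 in SFAT). The proteoglycan Sdc4, which holds chemokines at the cell surface, was the gene higher in each (0.93 ± 0.19, 1.90 ± 0.27 and 1.91 ± 0.33).

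Whether the diet response of Cth-/- mice differed between depots was tested in the fit of all 48 libraries, where 45 of the genes were tested. Between EFAT and BAT 6 passed (5 higher, 1 lower), against 7.29% of all genes higher and 8.93% lower. Beside Ackr3, Cxcl9 and Cxcl16 these were Ccl27a (1.10 ± 0.29), Ccl19 and Cxcl2, a neutrophil attractant. Ccl19 and Cxcl2 were too low to test in BAT, where all 4 Cth-/- CysF libraries and 2 of 4 Cth-/- CTRL libraries had 0 CPM of each, so that no BAT response was measured and no difference is given for them. Cx3cr1 was the 1 gene that passed between EFAT and SFAT (1.04% of all genes higher, 3.35% lower), and Ackr3 the 1 between SFAT and BAT (1.34% higher, 0.823% lower). Cx3cr1 and Ackr3 were named here after their values were seen. With the library set as a term 0 passed between EFAT and SFAT.

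The same diet was then read in Cth+/+ mice, which carry the enzyme. None of the tested genes passed for Cth+/+ CysF over Cth+/+ CTRL with edgeR in any depot, where 0% of all genes passed in EFAT, 0.0664% in SFAT and 0.0826% in BAT. Unadjusted edgeR p-values under 0.05 were found for 4 genes in EFAT, 3 in SFAT and 7 in BAT. The share of all genes under that unadjusted threshold is not given here, so these counts give no result of their own. DESeq2 called 0 in EFAT, Cxcr4 in SFAT (0.96, adjusted p = 0.00963) and Ccl8 in BAT (2.72, adjusted p = 0.0492), both higher in CysF and named after their values were seen. The fitted edgeR changes of Ccl8 were 1.11 ± 0.49 in EFAT, 1.60 ± 0.66 in SFAT and 2.69 ± 0.74 in BAT. In BAT it had 3.08, 0.359, 0.904 and 0.320 CPM in Cth+/+ CysF mice, against 0.137, 0.130, 0.369 and 0.0868 CPM in Cth+/+ CTRL mice, and without replicate 7, the high library, the change was 1.503 (adjusted p = 0.353). In SFAT it had 117, 29.5, 73.6 and 16.8 CPM in Cth+/+ CysF mice, against 15.7, 27.1, 19.9 and 15.5 CPM in Cth+/+ CTRL mice. Within set B, 6 genes were higher in SFAT (Ccl8, Cxcl16, Ccl7, Ccl2 and Ackr1 among them), and within set A only Cxcr4.

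Whether the diet response differed by genotype was tested next, and the test passed for 18 of 43 genes in SFAT (17 lower, 1 higher), 9 of 27 in BAT (all lower) and 8 of 40 in EFAT (7 lower, 1 higher). These tests share the Cth-/- CysF and Cth-/- CTRL libraries with the diet comparison above. Over all genes 12.4% were lower and 9.39% higher in SFAT, 4.32 and 2.1% in BAT, and 5.35 and 5.04% in EFAT. A negative value means a lower response in Cth-/- than in Cth+/+ mice. Ccl8 had the largest passing difference in each depot, at -5.20 ± 0.77 in EFAT (adjusted p = 0.00188), -4.88 ± 0.99 in SFAT (adjusted p = 0.00334) and -5.86 ± 1.25 in BAT (adjusted p = 0.0127). Ccr2 (-0.90 ± 0.22, -2.03 ± 0.51 and -2.45 ± 0.66) and Ccr1 (-0.98 ± 0.29, -1.95 ± 0.44 and -3.24 ± 0.80) passed in all 3 depots as well, but the call of Ccr1 in EFAT was lost in 16 of 23 alternative fits and that of Ccr2 in BAT in 13 of 24. Ackr3 passed in EFAT (-0.75 ± 0.22, lost in 13 of 23) and SFAT (-1.63 ± 0.30, lost in 0 of 24). The genes higher were Ccl25 in EFAT (0.92 ± 0.28), lost in 18 of 23, and Ccl28 in SFAT (1.66 ± 0.56), lost in 16 of 24. For Cxcl13 the difference did not pass in any depot (1.73 ± 0.69 in EFAT, 1.60 ± 0.79 in SFAT, 0.74 ± 0.51 in BAT, adjusted p = 0.112, 0.168 and 0.426). With the set as a term in the fit, Ccl8 alone passed in EFAT, and without the libraries in doubt 4 genes passed in BAT (Ccl8, Ccr1 and Ccl21a among them) and 2 in EFAT (Ccl8 and Ccr2).

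**Figure D4:**
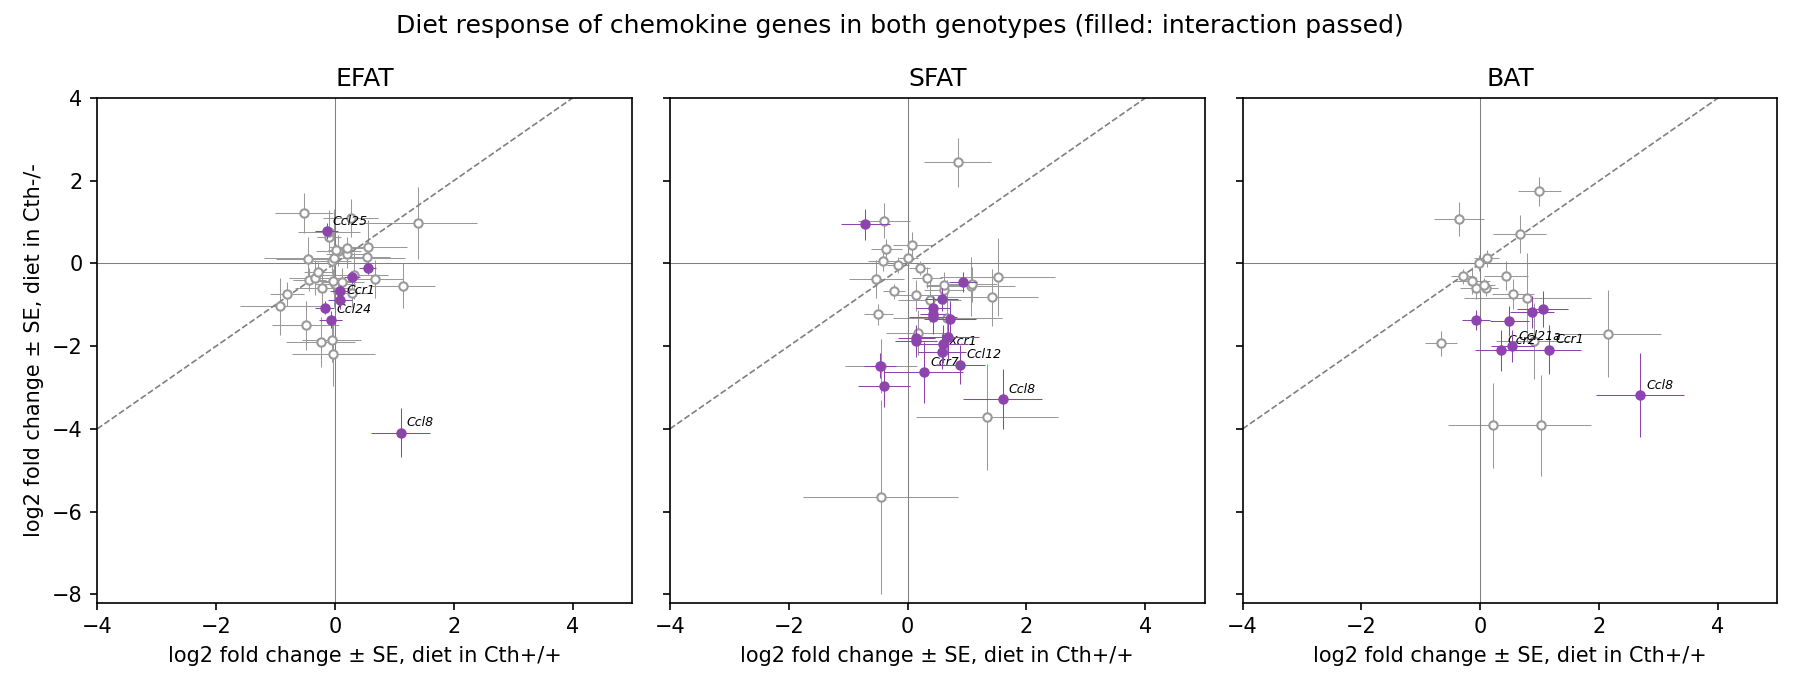
Log2 fold change ± SE of the diet in Cth-/- mice (vertical) against that in Cth+/+ mice (horizontal) for the chemokine genes reported here, with 1 panel for each depot. Filled points passed the test of the difference, the dashed line marks equal responses, the 4 largest passing differences drawn in each panel are named, and Ccl8 has the largest in each (-5.20 in EFAT, -4.88 in SFAT, -5.86 in BAT).

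On the cystine-free diet, Cth-/- and Cth+/+ mice differed in 22 of 43 genes in SFAT (19 lower, 3 higher in Cth-/-), 16 of 27 in BAT (15 lower, 1 higher) and 14 of 40 in EFAT (11 lower, 3 higher). Over all genes 19.4% were lower and 18.1% higher in SFAT, 17.1 and 14.5% in BAT, and 19.6 and 20.1% in EFAT. This comparison uses the same Cth-/- CysF libraries as the diet comparison. Ccl8 averaged 0.242 ± 0.171 CPM in Cth-/- CysF mice and 8.58 ± 4.30 CPM in Cth+/+ CysF mice in EFAT, 3.37 ± 2.74 and 59.2 ± 45.4 CPM in SFAT, and 0.0306 ± 0.0488 and 1.17 ± 1.30 CPM in BAT (SD, n = 4 each). Its log2 fold changes were -4.99 ± 0.61, -4.08 ± 0.75 and -5.09 ± 0.94. Cxcr4, which did not pass for the diet, was lower in SFAT (5.30 ± 1.73 CPM in Cth-/- CysF and 17.8 ± 3.10 CPM in Cth+/+ CysF mice, -1.73 ± 0.25) and BAT (-1.31 ± 0.36). Cxcl10 was lower in SFAT (-2.54 ± 0.45) and BAT (-3.54 ± 1.00), and Ccl12 was lower in all 3 depots (-1.48 ± 0.34 in EFAT, -3.04 ± 0.48 in SFAT, -3.72 ± 0.83 in BAT). For Cxcr4 the high Cth+/+ CysF library of BAT was replicate 10 (3.83 CPM, the others 1.69 to 1.85). The BAT value of Cxcl10 rests largely, and that of Ccl12 in part, on replicate 7 of that group. Replicate 7 had 5.57 CPM of Cxcl10 (the others 0.144 to 0.479) and 2.02 CPM of Ccl12 (the others 0.266 to 0.323). The groups overlapped for Cxcl10. Without it the change of Cxcl10 was -1.31 and the call was lost (adjusted p = 0.197), that of Ccl12 was -2.47 (adjusted p = 0.012) and that of Ccl8 was -3.90. Higher in Cth-/- were Cxcl13 in EFAT (1.42 ± 0.49) and SFAT (2.05 ± 0.57), Ccl25 (0.76 ± 0.20) and Ccl27a (0.54 ± 0.21) in EFAT, Ccl28 (1.65 ± 0.40) and Ackr2 (0.57 ± 0.17) in SFAT, and Cxcl12 in BAT (0.62 ± 0.19). The EFAT call of Ccl27a was lost in 15 of 16 alternative fits, that of Cxcl13 in 9 and that of Ccl25 in 3. In EFAT, where all 4 Cth+/+ CysF libraries belong to set A and 3 of 4 Cth-/- CysF libraries to set B, 6 genes passed with the set as a term, all of them lower in Cth-/-, and 0 within set A.

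On the control diet no tested gene differed between Cth-/- and Cth+/+ mice with edgeR, where 0.0464% of all genes passed in EFAT, 0.103% in SFAT and 2.1% in BAT. Unadjusted edgeR p-values under 0.05 were found for 0 genes in EFAT, 7 in SFAT and 3 in BAT. The share of all genes under that unadjusted threshold is not given here either, so these counts give no result of their own. DESeq2 called Ackr2 in SFAT and 0 genes in the other depots. The median log2 fold change of the tested genes was -0.02 in EFAT, 0.46 in SFAT and 0.17 in BAT, beside 0.01, -0.01 and 0.01 for all genes. For Ccl8 the values were 0.21 ± 0.49 in EFAT, 0.80 ± 0.65 in SFAT and 0.78 ± 0.79 in BAT, and for Ccr2 they were -0.04 ± 0.15 in EFAT and 0.42 ± 0.36 in SFAT.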

How the data were processed

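Poly(A) RNA of 48 fat samples (3 depots, 4 groups each, 4 libraries per group) was sequenced. The deposited values are RSEM expected counts per gene. FastQC, STAR, Picard and RSEM and the build mm10 are named per the submitters' processing notes. Versions, settings, annotation release and strandedness were not given in the sources used here. In each library 5.31 to 8.16% of the values were not whole, because RSEM shares reads between similar genes, and the expected counts were rounded before testing.

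Each depot was fitted alone with the edgeR 4.0.16 quasi-likelihood test (R 4.3.3, limma 3.58.1): 16 libraries in 4 groups, TMM scaling, filterByExpr (minimum count 10, minimum total 15), two-sided, Benjamini-Hochberg adjustment over all genes, threshold 0.05. Depots were compared in a fit of 48 libraries in 12 groups. The SE is the log2 fold change divided by the root of F. CPM used TMM-scaled library sizes, and CPM per kb used exon lengths of GENCODE M21 (GRCm38, the build called mm10). Intervals on ratios of summed reads are exact at 95% and, like the 3 reads that a count of 0 allows, cover counting error only. The scripts were tested on simulated data. Counts cover all 65 chemokine genes, of which 1, with 1 gene of the receptor signalling list, is not reported here.

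The genes and lists were chosen with earlier results of these data known. By rule, every gene that passed in Cth-/- mice is given with its change. Values by library are given for up to 6 genes per depot that changed most and averaged 1 CPM or more in a group. Ccl2, Ccl8, Cxcl12, Cxcl10, Cx3cl1, Ccr2, Cxcr4 and Ackr1 are given by group, and up to 3 genes per other list. Alternatives were RLE scaling, no filter, robust dispersion, DESeq2 1.42.0, a fit of only the compared groups, leaving out each replicate, a replicate block between depots and the library set as a term. Fits within a library set and without the libraries in doubt (BAT 10 and 12, SFAT 14 and 20, EFAT 17 and 20) were added after seeing the data.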

Additional observations from a re-analysis of the deposited data

Results flagged for a closer look

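Of 156 groups of 4 libraries tested, 12 held 1 library far from the others by Dixon's test. For normally distributed values chance gives about 1 in 20 groups. The test used CPM as they stand, which need not be normal near 0, so the count of 12 cannot be judged against that rate. In BAT, replicate 14 of the Cth-/- CTRL group was high for Ccl2 (4.42 CPM, the others 0.302 to 0.901) and for Ccl7 (2.16, the others 0.149 to 0.439). Replicate 7 of the Cth+/+ CysF group was high for Ccl7 (4.33, the others 0.511 to 0.851) and for Cxcl10 (5.57, the others 0.144 to 0.479). Cxcr4 was high in replicate 10 of that group (3.83, the others 1.69 to 1.85), Ccl2 was high in Cth+/+ CTRL replicate 1 (4.17, the others 0.666 to 1.04), and Cxcl10 was low in Cth-/- CysF replicate 20 (0.0494, the others 0.154 to 0.171). In SFAT, Cxcr5 was high in Cth-/- CTRL replicate 14 (7.08, the others 0.179 to 0.454) and in Cth+/+ CysF replicate 10 (2.59, the others 0.0698 to 0.355). In EFAT, Ccr3 was high in Cth-/- CysF replicate 18 (0.624, the others 0.0428 to 0.102), Ccl7 was low in Cth-/- CysF replicate 20 (0.428, the others 1.08 to 1.16), and Cxcl10 was high in Cth+/+ CysF replicate 8 (2.18, the others 0.448 to 0.621).

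The diet response differed between Cth-/- and Cth+/+ mice for the following genes, as the log2 response in Cth-/- minus that in Cth+/+ mice. In EFAT the values were -5.20 for Ccl8, -1.29 for Ccl24, -0.98 for Ccr1, -0.90 for Ccr2, -0.75 for Ackr3, -0.67 for Ccl9, -0.62 for Ccl6 and 0.92 for Ccl25. In SFAT the ligands stood at -4.88 for Ccl8, -3.33 for Ccl12, -2.55 for Cxcl10, -2.44 for Ccl7, -2.06 for Ccl2, -1.50 for Cxcl16 and 1.66 for Ccl28. The receptors of SFAT stood at -2.91 for Ccr7, -2.71 for Xcr1, -2.58 for Ccr3, -2.03 for Ccr2, -2.01 for Cx3cr1, -1.95 for Ccr1, -1.71 for Cxcr3, -1.63 for Ackr3, -1.44 for Ackr1 and -1.37 for Cxcr4. In BAT they were -5.86 for Ccl8, -3.24 for Ccr1, -2.54 for Ccl21a, -2.45 for Ccr2, -2.15 for Ccl9, -2.04 for Ccl6, -1.88 for Cxcl16 and -1.30 for Cxcl9. The Ccl21a copy on a scaffold did not pass there (-1.62 ± 1.52, adjusted p = 0.575).

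The diet response of Cth-/- mice differed between depots for 5 genes that were tested in both depots. EFAT minus BAT gave 1.40 for Cxcl16, 1.11 for Cxcl9, 1.10 for Ccl27a and -1.41 for Ackr3. EFAT minus SFAT gave 1.84 for Cx3cr1, and SFAT minus BAT gave -1.91 for Ackr3.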

How the results depend on the processing

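Over 205 chemokine results that passed the test, 3475 alternative fits kept the call 2878 times and lost it 597 times, and none turned the direction of a call. Of the 205, 75 passed in every alternative.

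The number of genes called for the diet in Cth-/- mice was 7 in EFAT with a term for the library set, 0 in set A alone, 1 in set B alone (Ccl8) and 4 without the libraries in doubt. It was 8 in SFAT within set B, and 6 within set A and 1 within set B (Ackr3, higher) in BAT, where set B holds 1 Cth-/- CysF library and 1 of its 2 Cth-/- CTRL libraries is in doubt. For the diet in Cth+/+ mice, DESeq2 called 1 gene in BAT and 1 in SFAT, and in SFAT the set as a term gave 1 (Cxcr4), set A 1 and set B 6. For the difference between genotypes in response, EFAT gave 5 without a filter, 1 with the set as a term, 0 within set A and 2 without the libraries in doubt. SFAT gave 9 within set A, and BAT gave 0 within set B and 4 without the libraries in doubt. For the genotype on CTRL, BAT gave 1 (Cxcl12, higher) with the set as a term and 1 within set A, and SFAT gave 1 with DESeq2 and 4 within set A (Ackr1, Ackr2 and Ackr3 higher, Ccl21a lower). For the genotype on CysF, EFAT gave 6 with the set as a term, 0 within set A and 5 without the libraries in doubt, SFAT gave 14 within set A, and BAT gave 0 within set B. Between EFAT and SFAT responses, RLE scaling gave 2 genes, no filter 0 and the set as a term 0. The cause of these moves was not tested, but fits within a set use fewer libraries. The share of all genes that passed in each of these fits is not given here. In EFAT no Cth+/+ CysF library is in set B, so comparisons that need one could not be fitted there.

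Without 1 library each, the diet in Cth-/- mice gave 8 to 13 genes in EFAT, 15 to 21 in SFAT and 7 to 12 in BAT (7 without Cth-/- CTRL replicate 14), and the diet in Cth+/+ mice 0 to 0 in each depot. The difference between genotypes in response gave 3 to 9 in EFAT (3 without Cth+/+ CTRL replicate 3), 13 to 20 in SFAT and 2 to 11 in BAT (2 without Cth+/+ CTRL replicate 3). The genotype on CTRL gave 0 to 0 in EFAT and SFAT and 0 to 1 in BAT, and on CysF 10 to 15 in EFAT, 17 to 24 in SFAT and 15 to 17 in BAT. Differences in response gave 2 to 7 for EFAT minus BAT (2 without EFAT Cth-/- CTRL replicate 12), 0 to 2 for EFAT minus SFAT and 0 to 2 for SFAT minus BAT. Depot levels gave 27 to 30 for EFAT over BAT, 9 to 12 for EFAT over SFAT and 23 to 27 for SFAT over BAT.

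Depots share replicate numbers, but same-numbered libraries correlated over 0.1 in only 6 of 16 cases between EFAT and BAT and 10 of 16 in each other pair, and were each other's best match in 5, 9 and 9 of 16, so the number was not taken as a pairing. With it as a replicate block the response differences gave 4 genes for EFAT minus SFAT (Cxcl16, Cxcr3, Cx3cr1 and Ccl19), 6 for EFAT minus BAT and 1 for SFAT minus BAT, and the depot levels 31 for EFAT over BAT, 14 for EFAT over SFAT and 27 for SFAT over BAT.

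Some changes in Cth-/- mice that did not pass as reported took the other sign under single settings. Cxcl12 in BAT was at -0.138 to 0.175 without 1 library (below 0 without replicate 12, 14 or 16), -0.046 with the set as a term, -0.0002 with only the groups compared, -0.28 within set A and -0.0904 without the libraries in doubt, and in SFAT it was at -0.0939 within set A. Cxcl10 in EFAT was at -0.205 to 0.351 without 1 library (below 0 without replicate 14, 18 or 20), -0.11 with the set as a term and -0.23 within set A. Cx3cl1 in SFAT was at -0.114 to 0.0718 without 1 library (above 0 without replicate 15 or 17) and 0.163 within set B. Within set B of EFAT, Ackr1 was at 0.0286, Ccl2 at 0.0353, Cxcr4 at 0.12 and Cx3cl1 at -0.19. Within set A of BAT, Cxcr4 was at 0.0076 and Ackr3 at -0.0967. Depth limits the BAT calls of Ccl8, Ccl7, Ccl2 and Ccr1, which rest on 4, 6, 13 and 15 reads in Cth-/- CysF libraries.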

Other observations

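Ccl28, a ligand of Ccr10 made by epithelia, varied more between EFAT libraries of 1 group than between groups. It had 28.3, 18.8, 23.6 and 21.6 CPM in Cth-/- CysF libraries, 6.70, 37.6, 0.881 and 44.6 CPM in Cth-/- CTRL libraries, 41.0, 43.0, 2.77 and 0.373 CPM in Cth+/+ CysF libraries, and 19.0, 0.770, 31.7 and 34.4 CPM in Cth+/+ CTRL libraries. Epcam, an epithelial surface protein, had 51.2, 29.6, 34.1 and 47.5 CPM, 9.53, 38.2, 0.352 and 53.1 CPM, 47.3, 46.9, 5.41 and 0.112 CPM, and 18.9, 0.0481, 34.7 and 47.1 CPM in the same libraries and order. In each of the 4 groups the library lowest in Ccl28 was the lowest in Epcam. Cx3cl1 ranged from 4.58 to 28.6 CPM over the 16 libraries, and the 5 libraries under 7 CPM of Ccl28 were the 5 lowest in Cx3cl1. The same 5 were the lowest in Cxcl16, which ranged from 7.14 to 18.7 CPM. Replicates 12 and 14 of the Cth-/- CTRL group are among these 5. They had 5.94 and 3.26 CPM of Cx3cr1, against 9.22 and 8.60 CPM in replicates 13 and 15. The EFAT diet responses of Cxcl16 and Cx3cr1 given above include these libraries. The part of epithelial tissue in the EFAT levels and responses of Ccl28, Cx3cl1, Cxcl16 and Cx3cr1 was not tested.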
